A study of Rattus norvegicus with 2 samples.

Results

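Septins are GTP-binding proteins that assemble into filaments and rings beneath cell membranes, and anillin (Anln) is a scaffold that ties septins to actin, myosin and RhoA at the cleavage furrow of dividing cells. Their transcripts were examined in oligodendrocyte precursor cells (OPCs) of the rat, from which the myelin-making oligodendrocytes of the brain and spinal cord arise. The members were the rows of the deposited gene table with the symbol Anln or a septin with the number 2, 4, 5, 6, 7, 8, 9 or 11, which gave 9 of 17455 genes, and the table held all 9. The samples were 2 libraries of total RNA from OPCs labelled wild type, 1 from cells transfected with the empty vector and 1 from cells transfected with Slit1, a secreted ligand of Robo receptors; both transfections used a Lonza kit. The sources used here do not give the age of the rats, the promoter of the construct or the time between transfection and harvest. With 1 library in each group no difference has a replicate check, no test was possible and no p-value is given.

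Septins fall into subgroups named after SEPT2, SEPT6, SEPT7 and SEPT3, and rod-shaped complexes take their subunits from different subgroups, with SEPT7 as the only member of its own. In the mature central nervous system, septin filaments containing Septin2, Septin4, Septin7 and Septin8 line the inner, non-compacted layer of the myelin sheath, where anillin is needed for their assembly and where they are known for preventing outfoldings of myelin. In dividing progenitors the same families act in cytokinesis.

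Septin4 is shown first by the sequence before its annotated starts, since it was the member with the largest difference among those with such a sequence, and Anln is shown beside it as the member best known as a cell division gene. Sequences of the 250 bases upstream of each start are from RefSeq on the rat assembly GRCr8, matched by gene number for 7 of the 9 members (all but Septin5 and Septin6). The counts are per gene, so they do not say which start was used. Capitals mark 4 motifs searched on both strands: CAGCTG and CACGTG (E-boxes), TTTGAA (the cell cycle homology region) and CCAAT (the CCAAT box); no marked matches overlap.
Septin4, chr10:72863764-72864013, plus strand: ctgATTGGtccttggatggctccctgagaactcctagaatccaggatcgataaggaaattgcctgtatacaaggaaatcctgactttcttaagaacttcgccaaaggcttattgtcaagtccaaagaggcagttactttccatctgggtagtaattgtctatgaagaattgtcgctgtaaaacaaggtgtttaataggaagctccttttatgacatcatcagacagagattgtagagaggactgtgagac
Septin4, chr10:72875716-72875965, plus strand: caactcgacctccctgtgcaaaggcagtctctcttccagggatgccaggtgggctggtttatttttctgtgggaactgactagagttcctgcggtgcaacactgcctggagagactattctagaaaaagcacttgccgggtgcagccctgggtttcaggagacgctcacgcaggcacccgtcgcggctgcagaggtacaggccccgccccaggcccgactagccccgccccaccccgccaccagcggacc
Septin4, chr10:72878314-72878563, plus strand: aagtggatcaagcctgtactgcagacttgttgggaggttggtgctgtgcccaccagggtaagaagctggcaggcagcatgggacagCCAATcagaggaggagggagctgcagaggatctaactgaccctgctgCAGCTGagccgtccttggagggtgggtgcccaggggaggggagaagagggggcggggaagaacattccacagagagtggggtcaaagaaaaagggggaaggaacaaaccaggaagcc
Anln, chr8:29197514-29197763, minus strand: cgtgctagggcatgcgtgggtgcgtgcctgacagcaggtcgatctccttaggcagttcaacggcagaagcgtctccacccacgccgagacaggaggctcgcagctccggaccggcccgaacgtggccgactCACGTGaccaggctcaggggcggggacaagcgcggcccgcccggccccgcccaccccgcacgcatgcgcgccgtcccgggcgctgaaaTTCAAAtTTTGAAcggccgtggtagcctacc
The upstream Septin4 window held 41.6% G and C, against 62.4% and 58.8% in the other 2, and the median over all windows was 51.2%. CAGCTG occurred 117 bases before the last Septin4 start and in no other of the 12 member windows, 2 of which begin 2 bases apart at Septin4; over all 33469 windows of this length 11.97% held it. In Anln, TTTGAA lay 24 and, on the opposite strand, 31 bases before the start (16.2% of all windows held it); it also lay 224 bases before a start of Septin9. In Anln, CACGTG lay 119 bases before the start (5.59% of all windows). CCAAT was found before Septin4, Septin7 and Septin8, and in 34.0% of all windows.

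Estimated counts totalled 18817462 for the vector library and 18998770 for the Slit1 library. The transfected gene differed as labelled, with Slit1 at 1.70 TPM (transcripts per 1000000, a level per length) in vector and 229.7 TPM in Slit1. Markers of the labelled cell type were present in vector and Slit1: Pdgfra, the PDGF receptor of OPCs, measured 40.2 and 41.4 TPM, and Cspg4 (NG2) 10.1 and 10.3 TPM. Astrocyte markers were abundant too, and all 8 on the list were measured, with a summed level of 8358 TPM in vector and 9418 TPM in Slit1, of which Gfap, the astrocyte filament protein, made up 4694 and 6130 TPM. Of 8 neuron markers, all were measured, and their sum was 183 TPM in both, of which Map2 made up 108 and 101 TPM. Markers of microglia (sums of 3.02 and 5.19 TPM) and endothelium (0.76 and 1.38 TPM) were scarce. Those of fibroblasts and pericytes summed to 22.7 and 22.1 TPM. Among them, Col1a2 (11.7 and 9.94 TPM) and Pdgfrb (7.06 and 7.94 TPM) were near the level of Cspg4. The 4 Schwann cell markers summed to 59.8 TPM in vector and 37.9 TPM in Slit1, of which Pmp2 made up 56.9 and 35.0 TPM. C1qa, Cx3cr1, Ptprc, Lum and Rgs5 were not analysed here.

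Septin4 and Septin5 were higher in the Slit1 library, and no member was lower by the same limit. Each gene's value in vector was taken from its value in Slit1 on the log2(TPM + 1) scale, and a gene was counted as higher or lower when it differed at least 1.5-fold on this scale. By that limit 2 of 9 members were higher and 0 lower, against 3.72% higher and 4.83% lower among the 13175 genes that reached a mean level of 1 TPM. All 9 members passed that floor. At a limit of 2-fold 0 members were higher and 0 lower (1.24% and 0.645% of all genes), and at a limit of 25% above the lower library 2 were higher, again Septin4 and Septin5, and 2 lower, Septin2 and Septin11 (10.7% and 17.9% of all genes). Septin2 reached that limit on the TPM scale, with a log2 difference of -0.35, but not in CPM (-0.31), in FPKM (-0.31), with edgeR TMM factors (-0.30) or with the median gene set to 0 (-0.31), while Septin6 reached it in CPM (-0.33) and with a pseudocount of 0.1 (-0.34). Their median difference was -0.04, and the median over all 13175 genes was -0.05.

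**Figure D1:**
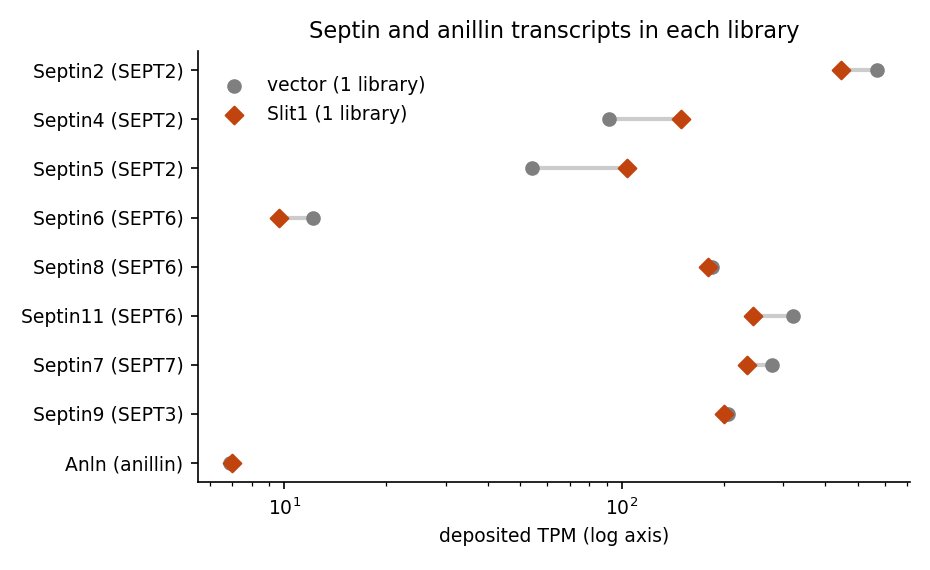
Deposited TPM of each member (log axis) in the vector library (grey circles) and the Slit1 library (orange diamonds), 1 library each, with the septin subgroup in brackets. Septin4 and Septin5 lie further right in Slit1, Septin2, Septin6, Septin7 and Septin11 further left, and the 2 points of Septin8, Septin9 and Anln nearly coincide.

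The SEPT2 subgroup held the pair with the largest differences, Septin5 and Septin4, while Septin2 lay on the other side of 0. Septin2, which pairs with Septin7 and SEPT6 subgroup members in many complexes and was the most abundant septin, stood at 571 TPM in vector and 446 TPM in Slit1. The Slit1 library was thus the lower one for Septin2, with a TPM ratio of 0.782 (95% counting interval 0.764 to 0.801) and a log2 difference of -0.35. Septin4, a septin of myelin and astroglia, measured 91.5 TPM in vector (1256 estimated counts) and 149 TPM in Slit1 (2077 counts). Its ratio was 1.63 (interval 1.52 to 1.75), a log2 difference of 0.70, and 2.46% of the genes tested had a larger one. Septin5, best known from nerve terminals, where it binds the vesicle fusion protein syntaxin, measured 54.1 TPM in vector (1691 counts) and 104 TPM in Slit1 (3375 counts). Its ratio of 1.92 (interval 1.81 to 2.03) was the highest of the 9 members, with a log2 difference of 0.93; 1.40% of the genes tested had a larger one. These intervals measure counting error alone, not how cultures vary.

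Septin5 and Septin4 were set against markers of the cells in which they are also known. None of the 8 neuron markers was higher by 1.5-fold and 1 was lower, Elavl4, an RNA-binding protein of neurons (9.80 TPM in vector, 5.24 TPM in Slit1). Tubb3, the neuronal tubulin, measured 33.6 and 46.5 TPM (ratio 1.39, interval 1.23 to 1.56). Rbfox3 measured 4.70 and 3.23 TPM (ratio 0.687, interval 0.512 to 0.920). Snap25, a syntaxin partner, measured 5.27 and 4 TPM, with an interval that held 1 (0.549 to 1.04). The median log2 difference of the neuron list was -0.16. Of the 8 astrocyte markers 0 were higher and 2 lower by 1.5-fold, the glutamate transporter gene Slc1a2 (215 and 94.1 TPM) and Gja1, connexin 43 (506 and 296 TPM), while the Gfap ratio was 1.31. The part of astrocytes and neurons in the septin values was not tested, and in bulk RNA fewer cells of a type and less RNA per cell cannot be told apart.

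In the SEPT6 subgroup, whose members sit between SEPT2 and SEPT7 subunits in the complex, 3 genes were measured as members and none differed by 1.5-fold. Septin11 was the second most abundant septin at 321 TPM in vector and 244 TPM in Slit1. Its ratio of 0.760 (interval 0.740 to 0.782) was the lowest of the 9. Septin6, a close relative of Septin11, was scarce, with 12.2 TPM (329 counts) in vector and 9.61 TPM (261 counts) in Slit1. Its ratio of 0.790 was near that of Septin11, with an interval from 0.668 to 0.931. Septin8, the member of this subgroup found in myelin, measured 184 and 179 TPM in vector and Slit1. Its ratio of 0.974 (interval 0.938 to 1.01) held 1, and by counts per 1000000 (CPM) the order was the other way, 292 in vector and 309 in Slit1. The quotient of Septin8 to Septin11 in TPM was 0.574 in vector and 0.735 in Slit1, which is 1.28 times as high (interval 1.22 to 1.34). In CPM, where Septin11 measured 630 in vector and 471 in Slit1, the change of this quotient was larger. Its size thus depends on the correction for length, which the interval leaves out.

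Septin7, the subunit that most septin complexes need, stood at 279 TPM in vector against 234 TPM in Slit1, a ratio of 0.838 (interval 0.807 to 0.871). Septin9, a subunit of the longer of these complexes, measured 206 and 200 TPM, and its ratio of 0.973 (interval 0.938 to 1.01) held 1. Anln was the scarcest member, with 6.91 TPM (282 counts) in vector and 7.01 TPM (298 counts) in Slit1. The 2 libraries did not differ in Anln beyond counting error, with a ratio of 1.01 and an interval from 0.858 to 1.20. The counting interval was wholly above 1 for 2 members, wholly below 1 for 4 and held 1 for 3; over all genes tested it was wholly above 1 for 22.3% and wholly below 1 for 33.5%.

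**Figure D2:**
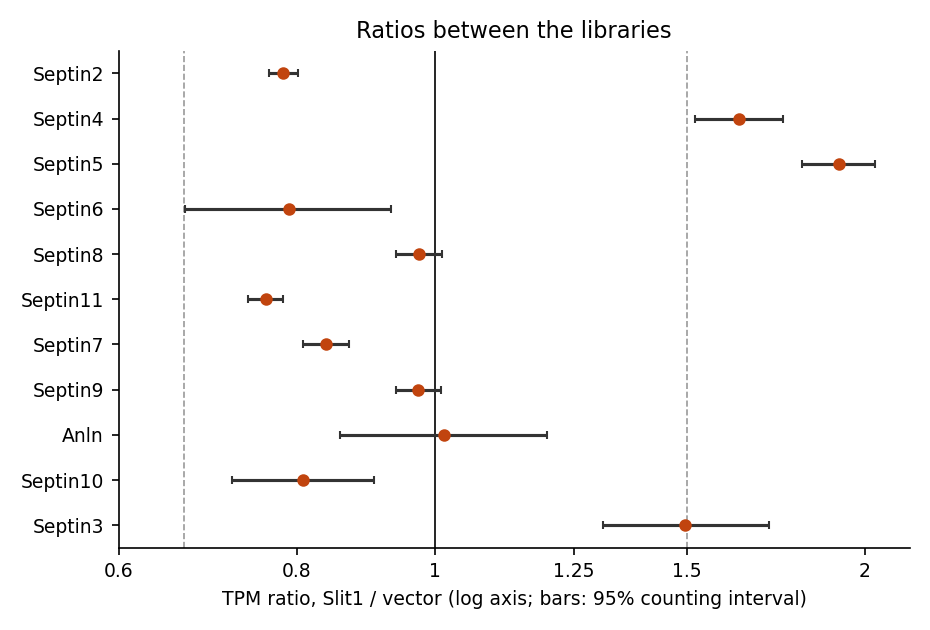
TPM ratio, Slit1 over vector (log axis), of the 9 members and of Septin3 and Septin10, with 95% counting intervals as bars; the solid line is a ratio of 1 and the dashed lines are 1.5-fold higher and lower. The intervals of Septin4 and Septin5 lie wholly above 1.5-fold, and those of Septin8, Septin9 and Anln hold 1.

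By level, the members spanned a wide range. Septin2 stood within the top 2.03% of the genes tested by mean TPM, Septin11 within 4.30%, Septin7 within 4.89%, Septin9 within 6.66% and Septin8 within 7.65%. Septin4 (12.7%) and Septin5 (20.2%) followed, and Septin6 (72.1%) and Anln (79.8%) were in the lower part. The order of the 9 by TPM was the same in vector and Slit1: Septin2, Septin11, Septin7, Septin9, Septin8, Septin4, Septin5, Septin6 and Anln. Above Septin6, the neighbours nearest to each other in this order in vector were Septin9 and Septin8, at 206 and 184 TPM, and in Slit1 Septin7 and Septin11, at 234 and 244 TPM. No spread between samples was available to say which neighbours differ.

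The make-up of the septin transcripts was described as each gene's share of the summed TPM of the 12 septins in the table as a level per length. These shares do not depend on the total to which a library is scaled, but they do on the correction for length. In CPM, which has none, Septin4 took 2.56% in vector and 4.60% in Slit1, under Septin5 at 3.45% and 7.47%, and Septin11 took 24.2% and 19.8%. The sum was 1774 TPM in vector and 1625 TPM in Slit1. Septin2 took 32.2% in vector (95% counting interval 31.7 to 32.6) and 27.5% in Slit1 (27.1 to 27.9). In TPM, Septin4 took 5.16% (4.88 to 5.43) and 9.19% (8.82 to 9.56), and Septin5 3.05% (2.91 to 3.19) and 6.39% (6.18 to 6.60). Together with Septin1, these genes gave the SEPT2 subgroup 40.4% of the sum in vector and 43.1% in Slit1, so that the subgroup's own sum was 716 and 700.3 TPM, a ratio of 0.977. Within the subgroup Septin4 stood at 0.160 of the Septin2 level in vector and 0.335 in Slit1, and Septin5 at 0.0948 and 0.232.

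The SEPT6 subgroup took a smaller share in the Slit1 library, 28.6% against 31.3% in vector, with Septin11 at 18.1% and 15.0%. Septin7 took 15.7% and 14.4%, and the SEPT3 subgroup, which holds Septin9 and Septin3, 12.6% and 13.9%. Set against Septin7 in the same library, Septin4 stood at 0.328 in vector and 0.639 in Slit1, which is 1.95 times as high (interval 1.798 to 2.11). The same quotient of Septin5 was 0.194 and 0.444 (2.29 times, interval 2.13 to 2.45), while that of Septin2 was 2.05 and 1.91 (0.933 times, interval 0.893 to 0.9754). Anln stood at 0.0248 of the Septin7 level in vector and 0.0300 in Slit1, with an interval of the change from 1.02 to 1.43.

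**Figure D3:**
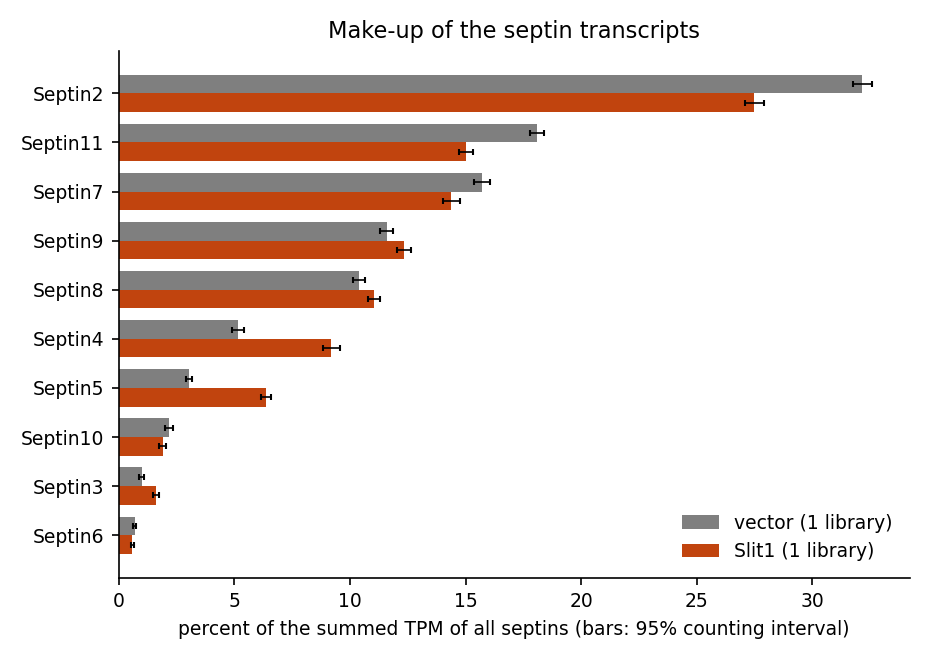
Share of each septin in the summed TPM of all septins, in percent from 0, in vector (grey) and Slit1 (orange), 1 library each, with 95% counting intervals; Septin1 and Septin14, under 0.05% in each library, are not drawn. The Septin2 bar ends at 32.2% in vector and 27.5% in Slit1, while Septin4 and Septin5 together take a larger share in Slit1.

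Of the septins outside the members, Septin3 and Septin10 stood above Septin6 and Anln in level, and Septin1 and Septin14 were close to 0. Septin3, a septin of neurons, stood at 17.5 TPM in vector against 26.3 TPM in Slit1, a ratio of 1.497 (interval 1.31 to 1.71) and a log2 difference of 0.56, just under the limit of 1.5-fold. It passed the limit in CPM, with edgeR TMM factors and with the median gene set to 0. Septin10, of the SEPT6 subgroup, measured 38.4 and 31.03 TPM (ratio 0.808, interval 0.720 to 0.906). Septin1 (3 and 8.99 counts) and Septin14 (7.23 and 3.09 counts) were near the limit of detection, and Septin12 was not analysed here.

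Genes that work with septins and anillin were described by lists. Cdc42 and the 5 Cdc42 effector proteins that bind septins had 0 members higher and 0 lower by 1.5-fold and a median log2 difference of 0.16. Cdc42 itself, a small GTPase of cell polarity, stood at 685 TPM in vector against 551 TPM in Slit1, while the effector genes Cdc42ep2 (14.4 and 18.2 TPM), Cdc42ep3 (13.97 and 16.2 TPM) and Cdc42ep4 (30.4 and 34.6 TPM) had ratios of 1.26, 1.16 and 1.14, of which that of Cdc42ep3 had an interval that held 1 (0.966 to 1.39). Cdc42ep1 measured 72.9 and 80.8 TPM (ratio 1.11), and Cdc42ep5 13.8 and 12.1 TPM (ratio 0.877, interval 0.668 to 1.15). Among 20 genes of the contractile ring and cytokinesis, which anillin joins, 1 was higher and 0 lower, with a median of 0.05. Birc5, a subunit of the chromosomal passenger complex, was the higher one (13.5 and 24.8 TPM). The mitotic kinase Plk1 measured 12.7 and 17.7 TPM, the kinesin gene Kif20a 15.1 and 20.5 TPM, and the RhoA-activated kinase gene Rock2 30.4 and 23.2 TPM. The exocyst, a vesicle tethering complex that septins bind, had 0 of 8 genes higher and 0 lower and a median of -0.24, with Exoc4 at 75.5 and 55.4 TPM.

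Anln was also set beside genes of DNA replication and mitosis. Of 24 such genes 3 were higher and 0 lower by 1.5-fold, with a median of 0.29; the number higher was between 5 and 6 in CPM, in FPKM, with TMM factors and with the median gene set to 0, and 0 with a pseudocount of 5. The higher genes were Ttk, a spindle checkpoint kinase (6.19 and 11.04 TPM), Tk1, thymidine kinase (24.5 and 38.2 TPM), and Ube2c, a ubiquitin-conjugating enzyme of mitosis (19.5 and 30.6 TPM). Mki67, the Ki-67 proliferation antigen, measured 11.7 and 17.4 TPM, a ratio of 1.48 (interval 1.37 to 1.61). The Anln interval, 0.858 to 1.20, held the ratios of 8 of the 24 genes, among them Mcm4 (1.004), Pcna (1.07) and Top2a (1.13); 15 had a ratio above it, Mki67 among them, and 1, Tyms (0.708), below it. It held the ratios of 8 of the 20 cytokinesis genes, with 8 above and 4 below. These counts used the ratios alone and left out each gene's own counting error. Some genes counted above have intervals that overlap that of Anln, such as Ccna2 (ratio 1.21, interval 1.03 to 1.43).

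Of the septins known from myelin, Septin4 was the one that was higher by 1.5-fold in the library with more myelin transcripts. Of 10 measured myelin genes at 1 TPM or more 9 were higher by 1.5-fold and 0 lower, with a median log2 difference of 1.56, and of 13 genes of newly formed oligodendrocytes 11 were higher and 0 lower, with a median of 1.60. Mog, among the 9, passed the floor only by its Slit1 level (0.15 TPM in vector, 1.93 TPM in Slit1). The number of myelin genes higher was 8 with a floor of 5 TPM, with a pseudocount of 5, in CPM, in FPKM and with TMM factors. Among the myelin septin genes and Anln, the log2 difference was 0.70 for Septin4, 0.02 for Anln, -0.04 for Septin8, -0.25 for Septin7 and -0.35 for Septin2. Mbp, myelin basic protein, measured 220.5 and 1704 TPM, and Mag, a myelin adhesion protein, 9.07 and 70.2 TPM, ratios of 7.73 and 7.74 against 1.63 for Septin4. Of 10 measured precursor genes 3 were higher and 0 lower by 1.5-fold, with a median of 0.13. The higher ones were Matn4 (3.45 and 8.92 TPM), C1ql1 (65.0 and 137.5 TPM) and the matrix proteoglycan gene Vcan (22.7 and 40.05 TPM). The summed level of the list was 2247 TPM in vector and 2128 TPM in Slit1. Ptprz1, its most abundant gene, measured 914 and 688 TPM (ratio 0.753), and Olig1 730 and 686 TPM (ratio 0.940).

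**Figure D4:**
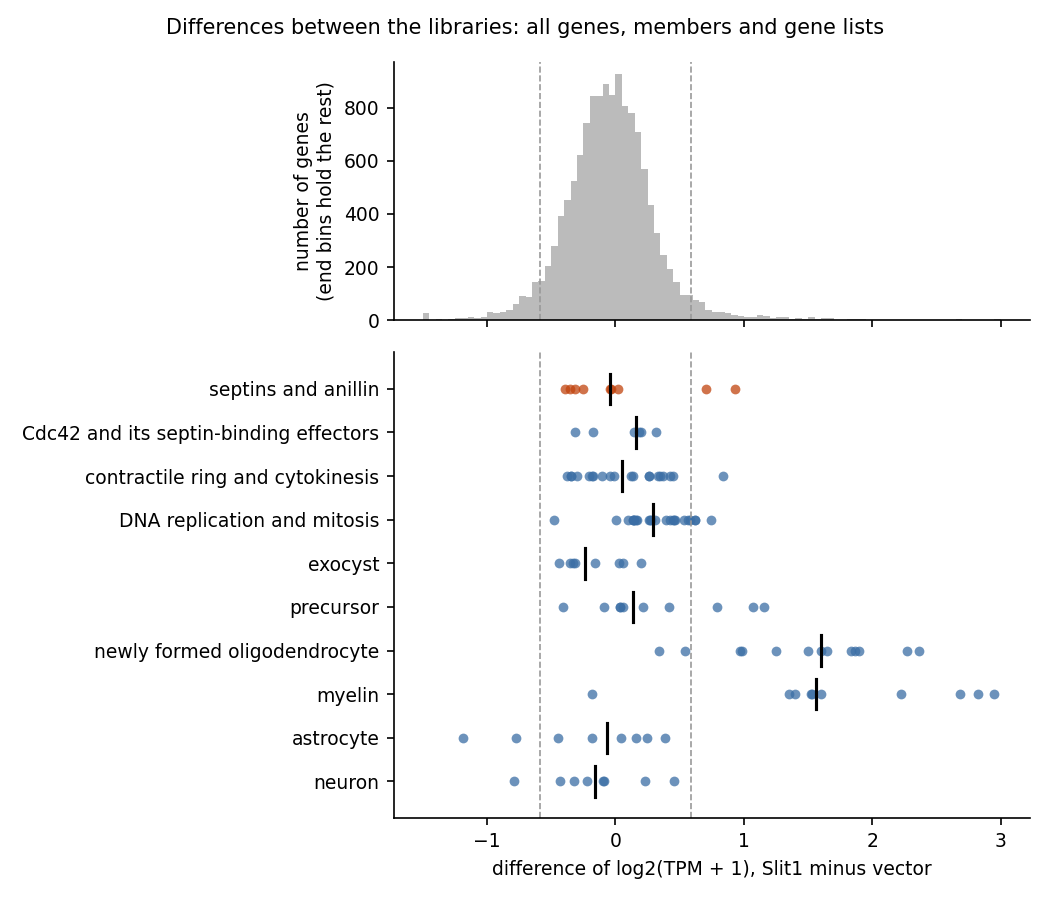
Top, histogram of Slit1 minus vector on the log2(TPM + 1) scale over 13175 genes, with genes beyond the axis in the end bins; bottom, the same difference for each gene at 1 TPM or more of the 9 members (orange) and of the lists (blue), with medians as black ticks and dashed lines at 1.5-fold. Septin5 and Septin4 lie right of the upper line at 0.93 and 0.70, and the other 7 members lie between the lines.

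Some values depend on how reads were assigned, which the sources used here do not give. On GRCr8, Anln overlaps Matcap2 (66.0 and 77.8 counts in vector and Slit1), Septin11 overlaps Ccni (4105 and 3928 counts) and Septin5 overlaps Gp1bb (1.28 and 3.17 counts). Septin9 and Septin11 also each overlap a long non-coding RNA gene, and Septin7 overlaps the pseudogene Rps6-ps5, none of them in the gene table. RefSeq names 5 copies of Septin7 and 1 of Septin2 as pseudogenes, of which 0 are in the table. Whether shared reads affected the members was not tested.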

How the data were processed

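The 2 libraries, 1 per group, were compared through 1 table of 17455 genes. Per the file headers the authors deposited FPKM, TPM and estimated counts of reads for each library. The estimated counts deposited by the authors need not be whole and were rounded for intervals and for edgeR. TPM, scaled by the authors to 1000000 per library, was the main unit. Per the submitters' processing notes the build was mRatBN7.2; the sources used here do not give the aligner, counter, annotation or strand. Among the gene numbers 17205 were in the RefSeq table of GRCr8, which gave overlaps and upstream sequence only. The number of value columns of other samples was 0.

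The measure was the difference of log2(TPM + 1) over genes whose mean level reached 1 TPM. Ratios have exact (Clopper-Pearson) 95% intervals for 2 Poisson counts; shares and quotients have normal-approximation intervals from the same counts. All cover counting error only. The calculation was tested on simulated Poisson counts with known fold changes and fixed lengths. That simulation held no variation between cultures and no error of read assignment, so it checks the calculation only. Members and lists were chosen with earlier results of these data known. The text names all members, the other septins, up to 4 genes with the largest difference per list, and Slit1, Mbp, Mag, Pdgfra, Cspg4 and Mki67. Mcm4, Pcna, Top2a, Tyms, Ccna2, Cdc42ep1, Cdc42ep5, Mog, Ptprz1, Olig1, Map2 and the overlapping genes were added after their values were seen. Other settings tried were a pseudocount of 0.1 or 5, a floor of 5 TPM or none, CPM, FPKM, the median gene set to 0, edgeR 4.0.16 TMM factors and other fold limits; those for lists and shares were chosen after seeing the data. Python 3.11.15, numpy 2.4.6, pandas 2.3.3 and scipy 1.17.1 were used.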

Additional observations from a re-analysis of the deposited data

How the results depend on the processing

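The 2 members higher by 1.5-fold and the 0 lower were the same number under pseudocounts of 0.1 and 5, CPM, FPKM, the median gene set to 0 and edgeR TMM factors. No floor or a floor of 5 TPM gave the same number too, but could not change it. Every member had a mean above 5 TPM, the lowest being Anln at 6.96 TPM. With a fold limit of 2 the number higher was 0, and with a limit of 25% the number lower was 2; counted by intervals wholly below 1 the number lower was 4. Over the 9 settings of scale and floor the log2 difference of Septin5 lay between 0.88 and 0.99 and that of Septin4 between 0.68 and 0.75. Septin2, Septin6, Septin7 and Septin11 were below 0 and Anln above 0 in all 9. The floor does not enter a gene's own difference, so the settings that change only the floor repeat the main value. Septin8 was below 0 in TPM with each pseudocount. It was above 0 in CPM, in FPKM, with the median gene set to 0 and with TMM factors (-0.04 to 0.09). Septin9 was above 0 in FPKM and with the median gene set to 0, and below 0 in the others (-0.06 to 0.01). The members' median was -0.15 for the septins without Anln. Over all genes, 43.5% of those past 1.5-fold were higher in TPM, against 52.3% in CPM, 54.2% in FPKM, 54.3% with the median gene set to 0 and 53.6% with TMM factors. No paired analysis was possible because each group has 1 library. Depth limits Anln and Septin6, at 282 and 329 counts in vector, and Septin1 and Septin14, at under 10 counts.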

Other observations

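The deposited counts and FPKM imply a transcript length for each gene in each library. For Septin5, Septin7, Septin2 and Anln the implied length differed by less than 0.4% between vector and Slit1. It was 5.39% longer in Slit1 for Septin8, at 3456 bases in vector and 3642 in Slit1. For Septin9 the implied length fell by 4.62% (3321 and 3167 bases), for Septin11 it fell by 4.67% (4274 and 4075 bases), for Septin6 it fell by 3.38% and for Septin4 it fell by 2.68% (1588 and 1545 bases). Over 11083 genes with at least 100 counts in each library, the ratio of implied lengths lay between 0.936 and 1.08 for the central 95%, a range that holds every member. The table gives no values per isoform, so isoforms of the members were not analysed here.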
